A study of Mus musculus with 51 samples.

Results

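The comparison of *T* KO with WT cells on day 3 of differentiation covered the genes with an FPKM above 1 in at least one of both columns, 11239 of the 24538 genes in the table. FPKM is the number of sequenced fragments scaled to transcript length and to library size, so that levels of different genes can be compared. The size of a difference is given as the log2 ratio of the *T* KO to the WT value, each with 0.1 FPKM added, and genes beyond 1 in size, which is a 2-fold difference, are called lower or higher. Of the examined genes, 10541 stood above 1 FPKM in both columns, 407 in WT only and 291 in *T* KO only. At the FPKM minimum, *Trim5* was just inside, with 1.00 FPKM in WT and 0.825 in *T* KO, and 5830454E08Rik just outside, with 0.999 and 0.468 FPKM.

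Both columns come from mouse F1G4 ES cells that were freed of feeder cells, aggregated and differentiated towards cardiac mesoderm with Bmp4 at 20 ng/ml, and were collected on day 3. WT cells were unmodified, and *T* KO cells were a clonal F1G4 derivative in which Cas9 nickase and paired guides targeted the promoter and first exon of *T*. The labels list 2 WT samples and 1 *T* KO sample for day 3, and the table holds 1 FPKM value per gene and condition. The study's legends describe these data as means of replicates, so the number of samples behind the *T* KO column is unclear. No spread between replicates is therefore known, no difference below has a replicate check, and no test was made. The line is a single clone, so effects of the deletion and other properties of the clone cannot be told apart. As these are bulk RNA samples, fewer cells of a type and less RNA per cell cannot be told apart either.

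T (Brachyury) is the founding member of the T-box family of transcription factors. It is switched on in the primitive streak by WNT, NODAL and BMP signalling, and embryos without it fail to extend the posterior body axis and lose posterior mesoderm and notochord. Known partners and targets include the WNT ligand *Wnt3a*, the paraxial mesoderm regulator *Msgn1* and the cardiac progenitor regulator *Mesp1*. The related factor Eomes overlaps with T in the posterior streak and also acts in the anterior streak.

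*T* lies at chr17:8434423-8442496 (plus strand, GRCm38). Its level was 323 FPKM in WT and 3.00 FPKM in *T* KO cells, a log2 ratio of −6.70. In the WT time course *T* was at 0.0784 FPKM in the ES state, 0.778 on day 1, 43.5 on day 2 and 320 on day 3. *T* was thus low in the library labelled *T* KO, and the transcript that remained was of the size seen in WT between days 1 and 2. FPKM is computed over the whole gene, and exons outside the deletion still count towards it. On day 2 the *T* KO line held 6.64 FPKM against 44.8 in WT. The promoter window of *T*, 250 bases before to 50 after the start, is shown since the deletion was aimed at it. It holds none of the motifs searched below, at chr17:8434173-8434472.
T: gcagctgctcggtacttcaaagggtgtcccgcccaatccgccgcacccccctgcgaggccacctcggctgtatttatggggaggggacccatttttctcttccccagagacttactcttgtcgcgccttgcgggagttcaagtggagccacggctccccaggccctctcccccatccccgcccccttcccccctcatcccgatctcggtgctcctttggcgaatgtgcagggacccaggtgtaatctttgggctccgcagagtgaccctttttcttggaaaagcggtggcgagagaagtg

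The promoters of a pair of genes that were listed at 0 in *T* KO cells and of a pair of interferon-response genes are shown to set the values beside the sequence. All sequences are RefSeq windows of the same extent in the direction of transcription (GRCm38.p6), and capitals mark the matches. The letters searched on both strands were TCACACCT, the T-box half-site, its core TCACACC, which every TCACACCT match also contains, the Tcf/Lef core CTTTGAT, and the interferon-stimulated response element core (GAAA and GAAA with 2 bases of any kind between them), which was added after the values were seen. The *Msgn1* window (chr12:11208899-11209198, minus strand) holds CTTTGAT on its reverse strand, read as ATCAAAG at position 48 of the window. The *Mesp1* window (chr7:79793541-79793840, minus strand) holds CTTTGAT at position 220 and TCACACCT at position 256. The *Isg15* window (chr4:156200769-156201068, minus strand) holds 3 overlapping interferon element matches from position 173 and TCACACC at position 225. The *Ifit1* window (chr19:34640639-34640938, plus strand) holds the interferon element on its reverse strand at positions 147 and 166 and TCACACC on its reverse strand at position 246.
Msgn1: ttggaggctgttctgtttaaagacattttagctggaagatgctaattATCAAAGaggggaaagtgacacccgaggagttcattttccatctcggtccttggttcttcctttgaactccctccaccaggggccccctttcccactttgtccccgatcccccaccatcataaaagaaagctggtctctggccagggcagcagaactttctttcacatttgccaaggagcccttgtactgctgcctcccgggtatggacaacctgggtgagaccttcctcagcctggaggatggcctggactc
Mesp1: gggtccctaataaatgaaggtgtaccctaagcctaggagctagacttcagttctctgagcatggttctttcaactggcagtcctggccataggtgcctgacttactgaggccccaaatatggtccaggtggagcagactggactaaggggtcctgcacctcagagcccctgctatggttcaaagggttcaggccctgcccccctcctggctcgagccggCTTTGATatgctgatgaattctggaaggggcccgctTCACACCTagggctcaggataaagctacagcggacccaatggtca
Isg15: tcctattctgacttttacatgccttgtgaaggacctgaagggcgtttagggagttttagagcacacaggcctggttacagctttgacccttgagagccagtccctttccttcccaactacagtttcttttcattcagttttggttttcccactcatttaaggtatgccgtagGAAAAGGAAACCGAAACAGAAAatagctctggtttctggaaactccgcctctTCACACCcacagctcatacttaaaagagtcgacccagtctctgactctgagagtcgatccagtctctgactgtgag
Ifit1: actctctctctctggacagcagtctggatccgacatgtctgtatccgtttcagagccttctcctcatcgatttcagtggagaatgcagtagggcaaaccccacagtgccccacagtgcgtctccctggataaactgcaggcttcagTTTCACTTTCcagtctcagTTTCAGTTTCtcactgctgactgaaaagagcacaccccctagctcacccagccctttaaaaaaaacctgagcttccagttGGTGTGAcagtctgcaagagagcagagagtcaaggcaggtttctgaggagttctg

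Promoters were matched for 9015 of the examined genes, with 11529 windows, and for 300 of the 409 lower genes. TCACACCT occurred in 7 of 388 windows of lower genes (1.80%), in 0 of 157 windows of higher genes, in 98 windows of all examined genes (0.850%) and in 1.28% of all 32851 windows of the reference. The 7 lower genes were *Mesp1*, *Samd3*, *Sgk1*, *Slc30a3*, *Ccl20*, *Zfp677* and *Atp6v0c*. CTTTGAT occurred in 15 windows of lower genes (3.87%), among them *Msgn1*, *Mesp1*, *Wnt5b* and *Sp5*, in 1.91% of windows of higher genes, in 2.39% of examined genes and in 3.73% of all windows. TCACACC was present in 5.15% of lower, 1.91% of higher, 3.18% of examined and 3.98% of all windows. Windows were matched for 6 of the 10 lower interferon-response genes. TCACACC was in 2 of these 6 windows and in 0 of 17 windows of members not called. Those 2 are the *Isg15* and *Ifit1* windows shown above, so the windows shown do not represent the lower interferon-response genes. *Msgn1* and *Mesp1* are 2 of 13 examined genes listed at 0 in *T* KO cells, and both windows hold CTTTGAT. As 3.87% of windows of lower genes hold it, this pair does not represent the lower genes either. A match is a description of letters and not a binding site.

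Of the 11239 examined genes, 612 (5.45%) were called, 409 lower (3.64%) and 203 higher (1.81%). The median log2 ratio was −0.01, and the values ran from −0.80 at the 5th to 0.65 at the 95th percentile. The scatter was wider at low levels. Among genes whose higher value was 1 to 2 FPKM, 15.2% were called, against 2.33% of genes at 20 to 100 FPKM. Lower values thus need a larger ratio to stand out from the bulk of genes. Rescaling both columns to TPM moved the count from 612 to 939, and a pseudocount of 1 FPKM moved it to 339.

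**Figure D1:**
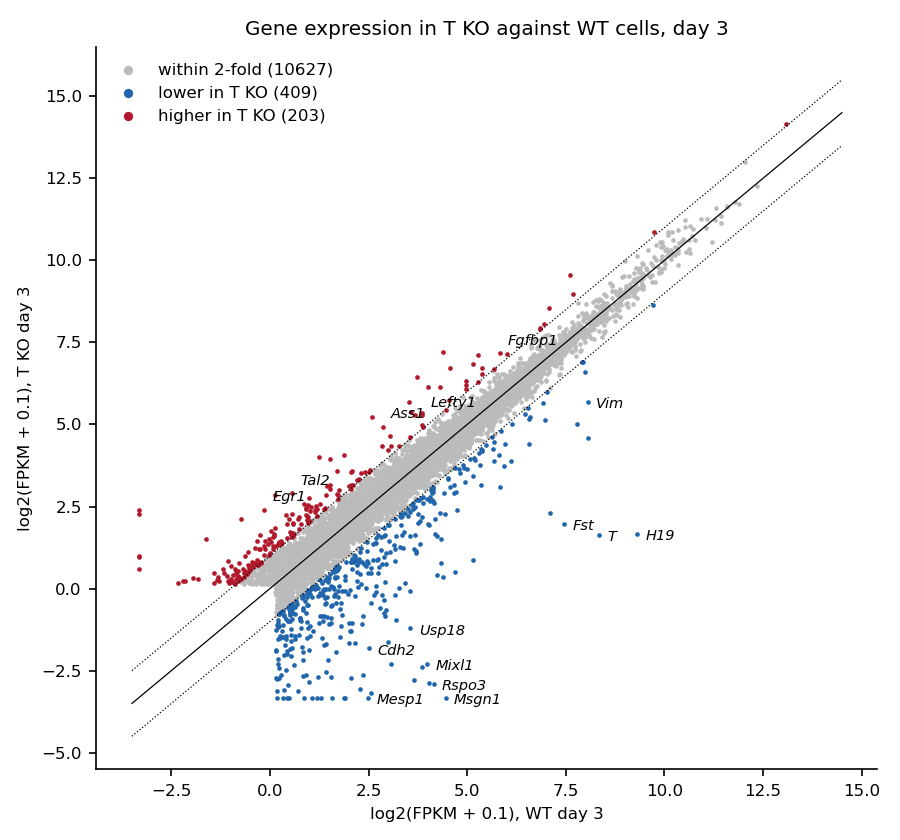
Each point is an examined gene, with log2(FPKM + 0.1) in WT cells on the x axis and in T KO cells on the y axis, day 3. Blue points are the 409 lower and red points the 203 higher genes, grey points lie within 2-fold, and the dotted lines mark 2-fold. T, H19, Fst, Msgn1 and Rspo3 lie far below the diagonal.

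The *T* KO column differed from WT in several features that lie outside the mesoderm lists. The Y-linked genes *Ddx3y*, *Eif2s3y* and *Uty* summed to 18.1 FPKM in WT and 0.167 FPKM in *T* KO. *H19*, an imprinted lncRNA on chromosome 7, was at 632 FPKM in WT and 3.10 FPKM in *T* KO. The 630 examined genes of chromosome 8 had a median log2 ratio of 0.23, with 501 above 0, and the medians of the other 19 chromosomes besides Y ran from −0.06 to 0.01. All of these were also seen in the *Eomes* KO and the *Eomes*/*T* dKO on day 3, where the Y sums were 0.0831 and 0.218 FPKM against 18.7 in WT, *H19* was at 3.25 and 4.49 FPKM against 654 and 651, and the chromosome 8 medians were 0.21 and 0.22. The dKO line was derived from the *Eomes* KO line, and the WT columns are shared. Without genes of chromosomes 8 and Y, neighbours of *T* and transcripts of at most 300 bases, 384 genes were lower and 151 higher. Transcripts of at most 300 bases were 66 of the examined genes, with a median log2 ratio of 1.09, 34 higher and 3 lower. The part of these features in the results below was not tested.

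**Figure D2:**
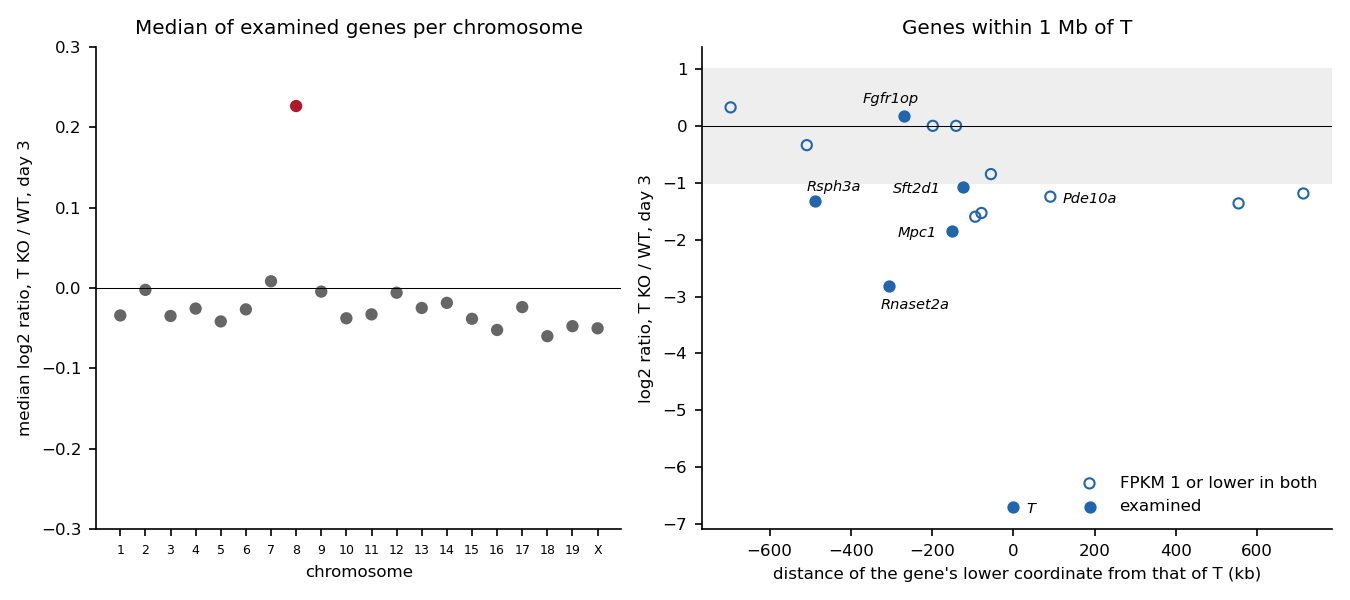
Left, the median log2 ratio (T KO over WT, day 3) of examined genes on each chromosome except Y, with chromosome 8 at 0.23 in red and the others between −0.06 and 0.01. Right, the log2 ratio of each gene within 1 Mb of T against the distance in kb of its lower coordinate from that of T, with filled points for examined genes and 4 of 5 examined neighbours below −1.

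The genes next to the deleted region were read out separately. Of 15 annotated neighbours within 1 Mb of *T*, 5 were examined, and 4 of them were lower, against 3.64% of all examined genes. *Rnaset2a*, a ribonuclease gene at −306 kb from the start of *T*, was at 20.0 FPKM in WT and 2.74 in *T* KO, a log2 ratio of −2.82. It shares sequence with *Rnaset2b*, and the copies together had a log2 ratio of −2.69. *Mpc1*, a subunit of the mitochondrial pyruvate carrier, was at 7.59 FPKM in WT and 2.03 in *T* KO, and *Sft2d1* at 14.6 and 6.89, with log2 ratios of −1.85 and −1.07. *Rsph3a* had a log2 ratio of −1.32, and *Fgfr1op*, at −269 kb, one of 0.18. In the *T* KO on day 2, *Mpc1* and *Sft2d1* had log2 ratios of −0.26 and −0.52, and *Rnaset2a* and *Rsph3a* of −7.85 and −2.81. In the *Eomes* KO on day 3, a line in which *T* itself was not the target, *Rnaset2a*, *Rsph3a*, *Mpc1* and *Sft2d1* had log2 ratios of −2.95, −1.20, −1.50 and −1.71. *T* was low in that line too, at 334 FPKM in WT and 4.46 in the *Eomes* KO. What sets the levels of these neighbours was not tested.

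Factors of the nascent mesoderm had the lowest median of the lists with at least 10 examined genes. Of 14 examined members 10 were lower, 0 were higher, and the median log2 ratio was −2.02, where 3.64% of all examined genes were lower and the overall median was −0.01. These 3.64% lower and the 1.81% higher are the background for each list count of *T* KO on day 3 below. *Mixl1*, a homeobox factor of the streak, was at 15.8 FPKM in WT and 0.105 in *T* KO, a log2 ratio of −6.27. *Mesp1*, the earliest regulator of cardiac progenitors, was at 5.49 FPKM in WT and listed at 0 in *T* KO. Its log2 ratio of −5.81 is set by the pseudocount. *Eomes*, the other T-box factor of the streak, was at 19.6 FPKM in WT and 4.83 in *T* KO, a log2 ratio of −2.0, and the remaining level lay between those of WT on days 1 and 2 (2.38 and 9.50 FPKM).

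*Evx1* and *Lhx1*, homeobox factors of the posterior streak and of axial and lateral mesoderm, had log2 ratios of −3.42 and −3.41, from 4.96 to 0.372 FPKM and from 1.27 to 0.0292 FPKM. *Gsc*, a homeobox factor of the anterior streak, had one of −2.46, from 2.83 to 0.433 FPKM. The zinc finger factors *Sp5* and *Sp8*, which act with WNT signals, had log2 ratios of −2.05 and −1.97, and the BMP-responsive *Msx1* one of −1.39. Members that were not called ran from −0.35 to 0.75. *Hand1*, a bHLH factor of lateral and extraembryonic mesoderm, was at 20.7 FPKM in WT and 29.5 in *T* KO, and *Otx2*, *Msx2* and *Foxh1* had log2 ratios of 0.75, 0.30 and −0.35. *T* is itself a member of this list, as are *Eomes* and *Mesp1* of others named below.

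**Figure D3:**
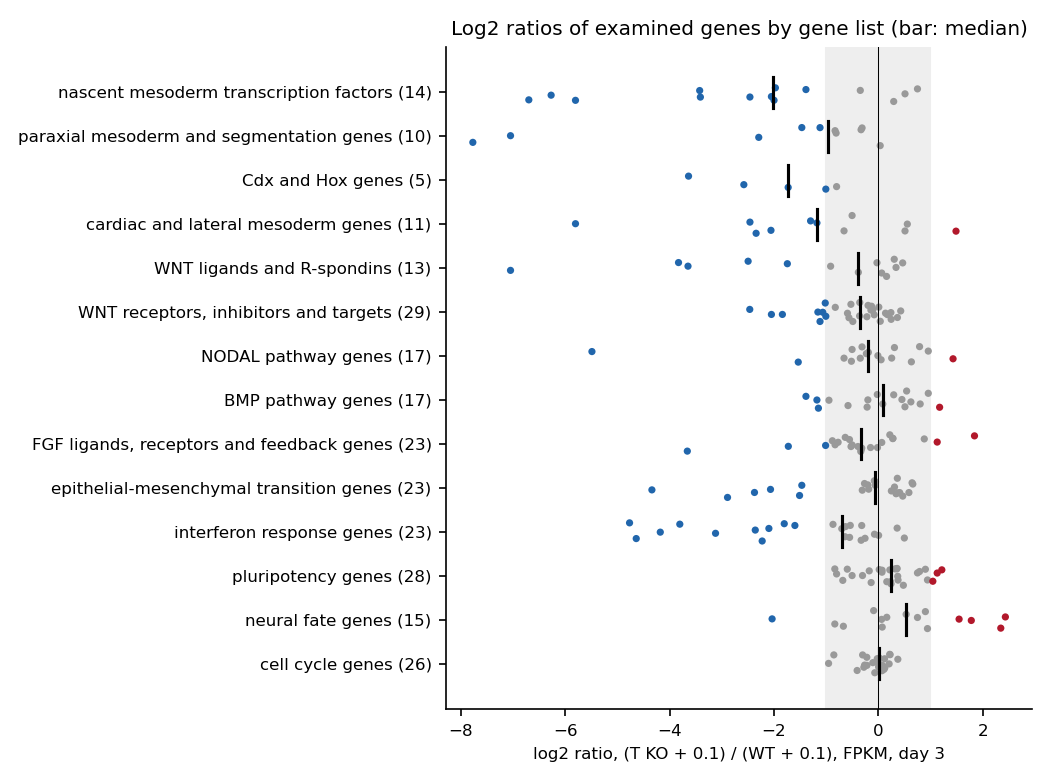
Each point is an examined gene placed by its log2 ratio (T KO over WT, day 3), grouped by list with the number examined in brackets, black bars are medians, and the grey band is the 2-fold range. The medians of nascent mesoderm factors (−2.02) and of Cdx and Hox genes (−1.73) lie below the band, and that of cell cycle genes lies at 0.01.

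Among 17 T-box genes only 4 were examined. Of these *T* and *Eomes* were lower, and *Tbx3* and *Mga* had log2 ratios of 0.48 and −0.11. *Tbx6*, which directs paraxial mesoderm, was below the FPKM minimum, at 0.743 FPKM in WT and 0.109 in *T* KO.

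Paraxial mesoderm and segmentation genes had 5 of 10 examined members lower and 0 higher. *Msgn1*, a bHLH factor of the presomitic mesoderm, was at 21.8 FPKM in WT and listed at 0 in *T* KO. On day 2 it was listed at 0 in both. *Rspo3*, a secreted amplifier of WNT signals, was at 17.6 FPKM in WT and 0.0335 in *T* KO, a log2 ratio of −7.05. The NOTCH ligands *Dll3* and *Dll1* had log2 ratios of −2.29 and −1.47, and the WNT feedback inhibitor *Nkd1* one of −1.12. The other 5 examined members, among them *Lfng* (3.61 FPKM in WT, 3.71 in *T* KO) and *Tcf15*, ran from −0.83 to 0.04. The median of the list was −0.97.

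Cardiac and lateral mesoderm genes were at low levels in both columns. Of 27 members 11 were examined, 6 were lower and 1 was higher, with a median of −1.18. Besides *Mesp1*, the lower members were the receptor gene *Pdgfra* (1.82 FPKM in WT, 0.249 in *T* KO), the second heart field factor *Isl1* (1.32 and 0.180), cardiac troponin *Tnnt2* (1.02 and 0.169), *Bmp4* (2.71 and 1.14) and atrial myosin light chain *Myl7* (1.04 and 0.362). *Myl4* was higher, at 4.07 FPKM in WT and 11.6 in *T* KO, a log2 ratio of 1.49. *Actc1*, cardiac actin, was not called, with a log2 ratio of 0.56. The later cardiac factors *Nkx2-5* and *Tbx5* were listed at 0 in WT and at 0.0701 and 0.0271 FPKM in *T* KO, and *Gata4* and *Kdr* were at 0.650 and 0.419 FPKM in WT and 0.0392 and 0.0147 in *T* KO, all under the FPKM minimum. With a pseudocount of 1 FPKM the median of this list was −0.62.

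Of the 38 *Cdx* and *Hox* genes, which set position along the body axis, 5 were examined, and 4 were lower. *Cdx2* was at 7.35 FPKM in WT and 0.498 in *T* KO, a log2 ratio of −3.64. *Hoxb1* was at 2.72 FPKM in WT and 0.373 in *T* KO, *Hoxb2* at 5.99 and 1.74 and *Cdx1* at 1.11 and 0.504, with log2 ratios of −2.58, −1.73 and −1.01. Over time in WT these genes were higher on day 3 than on day 2, with *Cdx2* at 7.30 and 0.617 FPKM and *Hoxb2* at 5.95 and 0.178. The tables of each day were normalised separately, and in *T* KO cells *Cdx2* was at 3.76 FPKM on day 2 and 0.498 on day 3.

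WNT ligands and R-spondins were split by member. Of 13 examined, 5 were lower, and the median was −0.38. *Rspo3* is described above. *Wnt3a*, the ligand of the posterior streak, was at 1.88 FPKM in WT and 0.0389 in *T* KO, *Wnt5a* at 2.67 and 0.121, *Wnt5b* at 17.9 and 3.09, and *Wnt3*, which starts streak formation, at 25.3 and 7.47. Their log2 ratios were −3.83, −3.65, −2.50 and −1.74. *Wnt8a*, the ligand with the highest FPKM in WT, was at 42.1 FPKM in WT and 22.3 in *T* KO and was not called. *Wnt4*, *Wnt7b*, *Wnt9a* and the secretion factors *Porcn* and *Wls* had log2 ratios between 0.07 and 0.47.

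WNT receptors, inhibitors and targets had 8 of 29 examined members lower and 0 higher. The lower ones were mostly feedback targets of the pathway. *Notum*, an enzyme that inactivates WNT ligands, had a log2 ratio of −2.46, *Sp5* of −2.05, *Lef1*, a transcription factor of the pathway, of −1.84, *Apcdd1* of −1.16, *Nkd1* of −1.12, *Axin2* of −1.06 and *Znrf3* of −1.02, and *Cdx1* was named above. *Axin2*, the most used readout of WNT activity, was at 13.6 FPKM in WT and 6.45 in *T* KO. The 6 Frizzled receptor genes examined ran from −0.56 to 0.43, β-catenin *Ctnnb1* was at 310 FPKM in WT and 312 in *T* KO, and *Dkk1* had a log2 ratio of −0.10.

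NODAL pathway genes moved in both directions. Of 17 examined, 2 were lower and 1 was higher, with a median of −0.19. *Fst*, which encodes the activin antagonist follistatin, was at 175 FPKM in WT and 3.80 in *T* KO, a log2 ratio of −5.49. The paired NODAL inhibitors went opposite ways, with *Lefty2* at 39.7 FPKM in WT and 13.6 in *T* KO and *Lefty1* at 14.4 and 39.1, log2 ratios of −1.53 and 1.43. *Nodal* itself was at 31.1 FPKM in WT and 37.1 in *T* KO, its co-receptor *Tdgf1* at 539 and 380, and *Smad2* and *Smad4* had log2 ratios of 0.05 and −0.01.

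BMP pathway genes had 3 of 17 examined members lower and 1 higher, and a median of 0.09. The lower ones were *Msx1*, *Bmp4* and the receptor gene *Acvr1* (2.39 FPKM in WT, 1.03 in *T* KO). *Id3*, a direct BMP target, was higher, at 41.3 FPKM in WT and 93.4 in *T* KO. *Id1*, *Id2* and *Id4* had log2 ratios of 0.54, 0.62 and 0.80 and *Smad7*, an inhibitory Smad, one of 0.96, none of them called.

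Among FGF genes, 3 of 23 examined were lower and 2 higher, with a median of −0.34. *Fgf8*, the main FGF of the streak, was at 55.7 FPKM in WT and 16.8 in *T* KO, a log2 ratio of −1.73. *Fgf3* was at 1.17 FPKM in WT and listed at 0 in *T* KO, and the phosphatase gene *Dusp4* had a log2 ratio of −1.01. *Fgf4* and *Fgf15* were higher, with log2 ratios of 1.13 and 1.84, and *Fgf5*, an epiblast ligand, was at 26.2 and 30.6 FPKM. In the *Eomes* KO on day 3 the log2 ratio of *Fgf5* was −4.45 and that of *Fgf8* −5.43.

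NOTCH pathway genes had 2 of 13 examined members lower, *Dll1* and *Dll3*, and 0 higher, with a median of −0.38. Retinoic acid genes had 3 of 11 lower and 2 higher, with a median of 0.01. *Cyp26a1*, which degrades retinoic acid in the posterior embryo, was at 9.10 FPKM in WT and 0.420 in *T* KO, a log2 ratio of −4.14. The synthesis gene *Aldh1a2* was at 1.02 FPKM in WT and 0.0472 in *T* KO. *Dhrs3* and *Crabp1* were higher, with log2 ratios of 1.05 and 1.02.

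In the list for the epithelial-mesenchymal transition, 6 of 23 examined members were lower, 0 were higher and the median was −0.06. *Cdh2* (N-cadherin) was at 5.61 FPKM in WT and 0.182 in *T* KO, *Vim* (vimentin) at 267 and 51.4, *Fn1* (fibronectin) at 18.2 and 4.26 and *Cdh11* at 1.11 and 0.0627. Their log2 ratios were −4.34, −2.37, −2.07 and −2.89. The transcription factors *Zeb2* and *Twist1* had log2 ratios of −1.51 and −1.47. *Cdh1* (E-cadherin) was at 139 FPKM in WT and 176 in *T* KO, *Epcam* at 250 and 324 and *Cldn6* at 97.1 and 129, none of them called. *Vim* was at 42.4 FPKM in WT and 39.4 in *T* KO on day 2.

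The apelin and chemokine list had 4 of 12 examined members lower and 1 higher. *Aplnr*, the apelin receptor of migrating mesoderm, was at 12.4 FPKM in WT and 0.0450 in *T* KO, and its ligand *Apln* at 25.9 and 1.33, log2 ratios of −6.43 and −4.18. *Apela*, the other ligand of the receptor, was at 127 FPKM in WT and 209 in *T* KO. *Pdgfra* and *Nrp2* were lower as well, the latter with a log2 ratio of −1.02, and *Cxcl12* was higher with one of 1.71. Of 22 ephrin, semaphorin, slit and netrin genes 5 were lower and 1 was higher. *Plxna2*, *Epha4*, *Efna3*, *Epha7* and *Epha1* had log2 ratios of −2.15, −2.09, −1.96, −1.34 and −1.33, and *Sema3c* one of 1.22. Matrix and integrin genes stood near the bulk, with *Fn1* lower and *Col2a1* higher among 22 examined and a median of 0.10.

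**Figure D4:**
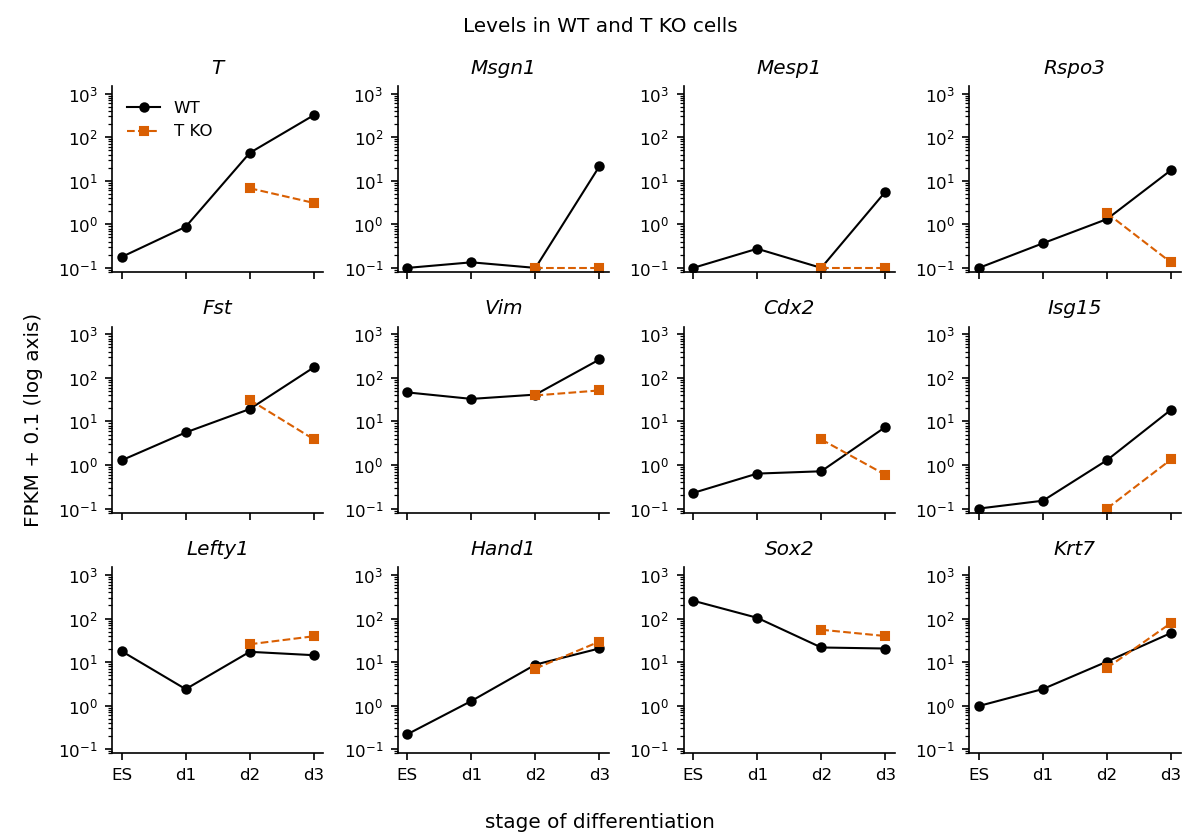
FPKM + 0.1 on a log axis for 12 list members in WT cells at the start (ES) and on each of the following 3 days (black circles, time-course table) and in T KO cells on days 2 and 3 (orange squares, each from its own table). T KO values of Msgn1 and Mesp1 are listed at 0 on both days, as are those of WT on day 2, those of Cdx2 and Fst are lower on day 3 than on day 2, and those of Hand1 and Krt7 are higher, as in WT.

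Of 23 examined interferon-response genes, 10 were lower, 0 were higher and 13 were not called, with a median of −0.70, which lies within 2-fold. *Usp18*, a brake on interferon signalling, was at 11.7 FPKM in WT and 0.332 in *T* KO, *Rtp4* at 7.91 and 0.221, the ubiquitin-like modifier *Isg15* at 18.6 and 1.24 and *Ifit1*, which binds foreign RNA, at 4.12 and 0.385. Their log2 ratios were −4.77, −4.64, −3.81 and −3.12. *Ifit3* was at 1.71 FPKM in WT and listed at 0 in *T* KO. The immunoproteasome subunits *Psmb8* and *Psmb9* had log2 ratios of −2.23 and −1.60, and *Ifi27* and *Oasl2* of −2.36 and −2.10.

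The members that were not called included *Irf1* (77.2 FPKM in WT, 64.7 in *T* KO), *Irf9*, *B2m*, *Bst2* and the MHC genes *H2-K1* and *H2-D1*, with log2 ratios between −0.63 and −0.07. In the WT time course these genes were higher on day 3 than on day 2, with *Usp18* going from 0.0557 to 11.6 FPKM, *Isg15* from 1.19 to 18.4 and *Psmb8* from 5.91 to 67.9. In *T* KO cells *Isg15* was listed at 0 on day 2 and reached 1.24 FPKM on day 3. Further interferon genes, chosen after their values were seen, were lower too. *Gbp2* was at 94.6 FPKM in WT and 35.6 in *T* KO, and *Iigp1*, *Gbp9*, *Mx2*, *Zbp1*, *Oas1a* and *Ifih1* had log2 ratios of −3.64, −3.61, −3.31, −3.01, −2.33 and −2.19. The chemokine gene *Cxcl10* went the other way, from 1.96 to 5.49 FPKM. Windows were matched for 6 of the 10 lower list members. The interferon element was found in 3 of these 6 windows, *Ifit1*, *Ifit3* and *Isg15*, and in 5 of 17 windows of members not called. It was in 7.73% of windows of all lower genes, in 6.37% of higher and in 2.85% of examined genes.

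Genes of other fates were read out next. Of 28 examined pluripotency genes 0 were lower and 3 higher, *Klf2*, *Fgf4* and *Utf1*, with log2 ratios of 1.22, 1.13 and 1.05 and a list median of 0.24. *Pou5f1* was at 469 FPKM in WT and 311 in *T* KO, *Nanog* at 120 and 97.1 and *Sox2* at 20.5 and 39.5, none of them called. Of 15 neural genes 4 were higher and 1 was lower, with a median of 0.53. Without genes of chromosomes 8 and Y, neighbours of *T* and short transcripts, an alternative chosen after seeing the data, the median was 0.16, and *Irx5* and *Irx3* lie on that chromosome. *Irx5*, *Tal2*, *Irx3* and *Foxd3* had log2 ratios of 2.44, 2.35, 1.78 and 1.55, and *Nkx1-2*, a factor of caudal neural progenitors, one of −2.04. The levels were low, with *Tal2* reaching 7.43 FPKM and *Irx5* 1.07 FPKM in *T* KO. The *Sox2* level in *T* KO cells was above that of WT on both days (55.2 against 22.2 FPKM on day 2).

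Of 19 definitive endoderm genes 4 were examined. *Gsc* was lower, and *Foxa2*, *Foxa3* and *Trh* had log2 ratios of −0.68, 0.80 and 0.60. *Trh*, which encodes thyrotropin-releasing hormone, was at 70.9 FPKM in WT and 107 in *T* KO, and *Foxa2* at 4.54 and 2.80. *Sox17* was at 0.0805 FPKM in WT and listed at 0 in *T* KO. Of 16 examined extraembryonic and amnion genes 4 were lower (*H19*, *Cdx2*, *Isl1* and *Eomes*) and 3 higher. The higher ones were *Ascl2* and *Plac1*, of the trophoblast, with log2 ratios of 1.53 and 1.43, and the growth factor *Igf2*, at 114 FPKM in WT and 239 in *T* KO. The keratins *Krt8*, *Krt18* and *Krt7* were at 624, 853 and 46.8 FPKM in WT and at 549, 1099 and 78.6 in *T* KO. These keratins and *Igf2* rose in WT from day 2 to day 3, and in the *T* KO line *Krt7* went from 7.25 to 78.6 FPKM and *Igf2* from 12.7 to 239.

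Blood and endothelial genes had *Lmo2* (1.36 FPKM in WT, 0.140 in *T* KO) and *Etv2* (2.40 and 0.459), factors of early blood and endothelium, lower among 5 examined, and *Gata2*, *Egfl7* and *Pecam1* had log2 ratios of 0.70, 0.25 and −0.28. Among 10 primordial germ cell genes *Dnd1* was lower, with a log2 ratio of −2.04. Fibroblast genes, which would mark leftover feeder cells, had 1 of 10 examined lower and a median of 0.08. The 23 measured members summed to 371 FPKM in WT and 535 in *T* KO, of which the smooth muscle gene *Tagln* made up 224 and 415, and the collagens *Col1a1* and *Col1a2* were at 0.474 FPKM each in WT and 0.478 and 0.374 in *T* KO.

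Among genes of cell state, immediate early genes had 4 of 15 examined members higher and 1 lower, with a median of 0.42. *Egr1* was at 0.804 FPKM in WT and 5.19 in *T* KO, a log2 ratio of 2.55, *Egr2*, *Btg2* and *Fos* had log2 ratios of 1.28, 1.19 and 1.07 and *Ier3* one of −1.11. Of 19 Atf4 and amino acid stress genes 5 were lower, *Vldlr*, *Chac1*, *Cth*, *Ddit4* and *Ddit3*, with log2 ratios from −2.60 to −1.07 and a list median of −0.46. *Atf4* itself had one of −0.05. Glycolysis and hypoxia genes had a median of −0.27, with *Egln3* lower among 25 examined. All 26 cell cycle genes stayed within 2-fold, from −0.95 for *Ccnd2* to 0.37 for *Cdkn1c*, and their median was 0.01. Of 20 imprinted genes *H19* was lower and *Igf2*, its neighbour, higher, and the others ran within 2-fold. Of 11 polyamine genes *Arg1* (16.2 FPKM in WT, 0.0362 in *T* KO) and *Amd1* were lower. *Amd1* and its copy *Amd2* together were at 34.9 and 34.8 FPKM. All 3 examined Y-linked genes were lower, and 4 further members were below the FPKM minimum.

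By rank among the 5782 longer genes with at least 10 FPKM in the higher column, the 12 lowest ratios belonged to *Msgn1*, *H19*, *Rspo3*, *Arg1*, *T*, *Aplnr*, *Mixl1*, *Eif3j1*, *Fst*, *Usp18*, *Alox15* and *Apln*. The ratios ran from −7.77 to −4.18. *Arg1* (arginase) rose in WT from listed at 0 on day 2 to 16.0 FPKM on day 3, and *Alox15*, a lipoxygenase, from 10.2 to 35.3 FPKM. *Alox15* was at 35.6 FPKM in WT and 1.72 in *T* KO in the day 3 table. *Eif3j1*, a translation factor subunit, has a near-identical copy, *Eif3j2*, and the copies together were at 40.2 FPKM in WT and 45.2 in *T* KO, a log2 ratio of 0.17. Its single-gene value is therefore uncertain.

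The 12 highest were *Dynlt1f*, *Ass1*, *Myl9*, 1190005I06Rik, *Dancr*, *Myl4*, *Lefty1*, *Fgfbp1*, *Platr22*, *Calca*, *Tiparp* and *Sema3c*, with log2 ratios from 2.19 to 1.22. They were thus much smaller in size than the lowest. *Dynlt1f* belongs to a set of 4 copies that together had a log2 ratio of 0.96. *Ass1*, which makes argininosuccinate from citrulline, was at 7.17 FPKM in WT and 30.5 in *T* KO. Its level in WT fell from 26.1 FPKM in the ES state to 7.12 on day 3. The myosin light chains *Myl9* and *Myl4* were at 38.9 and 11.6 FPKM in *T* KO. Other contractile genes, chosen after their values were seen, did not share a direction. *Myl3* (0.502 FPKM in WT, 4.23 in *T* KO), *Lmod1* and *Tnnt1* had log2 ratios of 2.85, 1.42 and 1.10, *Tnnc1* and *Actc1* of 0.98 and 0.56, and *Myl7* and *Tnnt2* of −1.30 and −2.06. *Fgfbp1*, which releases FGFs from the matrix, was at 56.5 FPKM in WT and 145 in *T* KO. 1190005I06Rik lies on chromosome 8.

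The other KO lines set these values in context, and as their tables share WT cells with the *T* KO table the values are given side by side only. On day 3, 8.69% of 11629 examined genes were lower in the *Eomes* KO and 5.23% of 11473 in the dKO, against 3.64% in the *T* KO. Lower and higher genes together made up 15.5% in the *Eomes* KO, 10.3% in the dKO and 5.45% in the *T* KO. *T* was at 4.46 FPKM in the *Eomes* KO and 1.93 in the dKO. *Mixl1* had log2 ratios of −6.27 in the *T* KO, −7.12 in the *Eomes* KO and −5.90 in the dKO, and *Mesp1* and *Msgn1* were listed at 0 in each of these lines. *Foxa2* had different values, with −0.68 in the *T* KO, −4.75 in the *Eomes* KO and −3.54 in the dKO, and *Nodal* had 0.26, −1.94 and −0.84. *Fn1* went the other way, with −2.07 in the *T* KO, 0.23 in the *Eomes* KO and −1.21 in the dKO. *Zeb2* had −1.51, 0.26 and −0.01 and *Epha4* −2.09, 0.56 and 0.27. *Lefty1* had 1.43, −1.69 and 1.40. Ratios also varied with transcript length. In the shortest and longest of 4 equal groups by length, medians were −0.26 and 0.20 in the *Eomes* KO. They were 0.10 and −0.17 in the dKO and 0.01 and −0.05 in the *T* KO. *Zeb2* and *Epha4*, with transcripts of 9291 and 6379 bases, belong to the longest group. The part of transcript length in these values was not tested, and none of the differences between lines was tested.

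Of the interferon list, 16 of 23 examined members were lower in the *Eomes* KO and 12 of 23 in the dKO on day 3, and *Irf1* had log2 ratios of −0.25 in the *T* KO, −2.94 in the *Eomes* KO and −2.41 in the dKO. Nascent mesoderm factors were lower for 9 of 14 in both of these lines. Of all examined genes, 8.69% were lower in the *Eomes* KO and 5.23% in the dKO. Of neural genes, 4 of 15 examined were higher in the *T* KO, 5 of 16 in the *Eomes* KO and 6 of 18 in the dKO, where the backgrounds of higher genes were 1.81%, 6.82% and 5.06%.

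**Figure D5:**
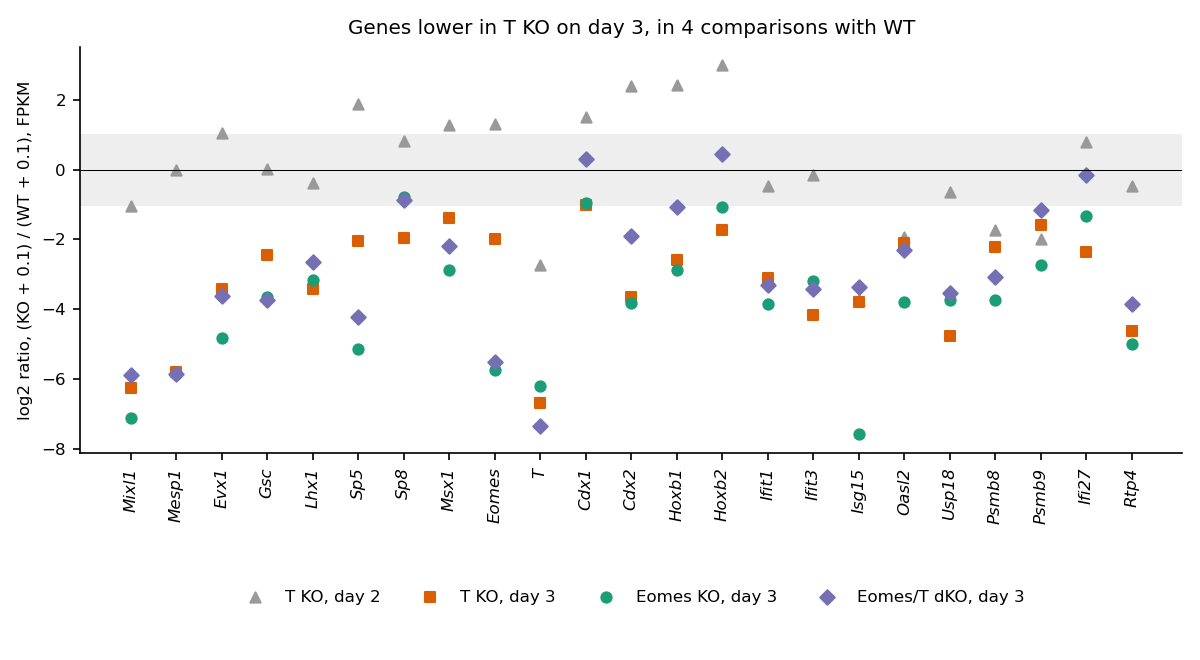
Log2 ratio of KO over WT (FPKM + 0.1) for the members named in the text of 3 lists (nascent mesoderm factors, Cdx and Hox genes, interferon-response genes) that were lower in T KO on day 3, in each of 4 comparisons, with the 2-fold range in grey. On day 3 Mixl1 and Mesp1 lie below −5.8 in each line, and on day 2 of T KO Cdx2, Hoxb1 and Hoxb2 lie above 2. Hoxb1 was at or below 1 FPKM in both columns on day 2.

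Day 2 of the same line is a separate sample, normalised separately, and its values are set beside those of day 3 without being their starting level. On day 2, 9.38% of 11359 examined genes were lower and 5.25% higher, 14.6% in all. The medians of *T* KO on day 2 were 0.93 for nascent mesoderm factors (2 of 11 lower, 5 higher) and 2.99 for *Cdx* and *Hox* genes (3 of 3 higher). The latter is the ratio of *Hoxb2*, at 0.186 FPKM in WT and 2.17 in *T* KO on day 2. *Cdx2* was at 0.634 FPKM in WT and 3.76 in *T* KO. With WT levels this low, these ratios depend on the pseudocount. *Fst* and *Rspo3*, far lower on day 3, had log2 ratios of 0.66 and 0.41 on day 2, from 19.7 to 31.2 FPKM and from 1.26 to 1.71 FPKM. *Fst* thus stood at 31.2 FPKM on day 2 and 3.80 on day 3 in *T* KO cells, while WT went from 19.2 to 174. *Eomes* was at 24.7 FPKM in *T* KO and 9.81 in WT on day 2. In the *T* KO on day 2 longer transcripts had higher ratios, with medians of −0.11 in the shortest and 0.07 in the longest of 4 equal groups by transcript length, and on day 3 these were 0.01 and −0.05.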

How the data were processed

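RNA of F1G4 WT and *T* KO cells was sequenced from strand-specific total RNA libraries. The authors trimmed reads with cutadapt 2.9, aligned them with HISAT2 2.1.0 to mm10 (GRCm38) and computed FPKM with Cuffdiff 2.2.1 on the refSeq annotation (versions per the submitters' processing notes). The deposited FPKM hold 1 pooled value per gene and condition, scaled to library size. Read counts were not used here, so depth and counting precision are unknown, and no SD, n or test is given. Cuffdiff shares multi-mapping reads among near-identical copies, which can move single-copy values. The WT column was 1.01 times the Day3 column of the time course at the median and at the 5th and 95th percentiles of genes, and some multi-copy genes, such as *Rnaset2b* (3.98 and 16.0 FPKM), differed by more.

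Log2 ratios were computed with a pseudocount of 0.1 FPKM for genes above 1 FPKM in either column and called beyond 1 in size. A ratio against a value listed at 0 is set by the pseudocount. Named genes are *T*, the 12 lowest and 12 highest ratios among genes with at least 10 FPKM in the higher column (without transcripts of at most 300 bases, ribosomal protein, histone and numbered Gm genes), called or best known members of 31 gene lists, and genes within 1 Mb of *T*. Members and lists were chosen with earlier results of these data known. Genes outside this rule are marked. Symbols were matched to RefSeq GRCm38.p6 for 24433 genes, and 105 were not matched. Alternatives were other pseudocounts, FPKM minimums, scalings and the Day3 column of the time course in place of the WT column. That column comes from the same WT samples, so it does not check the choice of WT sample. The calculation was run on simulated data in which changed genes were set well past the threshold. This checks the arithmetic only and not the calls reported here. Python 3.11.15, numpy 2.4.6, pandas 2.3.3 and matplotlib 3.10.9 were used. Some list members enter the counts and medians but are not reported here by name.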

Additional observations from a re-analysis of the deposited data

Results flagged for a closer look

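In the *T* KO line, 15 of the named genes and list members above 1 FPKM in either column on both days were past 2-fold in opposite directions on days 2 and 3. Of all examined genes, 5.45% were called on day 3 and 14.6% on day 2. The share of all genes with opposite calls was not computed, so the 15 cannot be set against a background. The difference between days was not tested, since each day has 1 pooled value. Lower on day 3 and higher on day 2 were *Eomes* (−2.0 on day 3, 1.32 on day 2), *Evx1* (−3.42 on day 3, 1.04 on day 2), *Sp5* (−2.05 on day 3, 1.89 on day 2), *Msx1* (−1.39 on day 3, 1.29 on day 2), *Lef1* (−1.84 on day 3, 1.80 on day 2), *Cdx2* (−3.64 on day 3, 2.39 on day 2), *Hoxb2* (−1.73 on day 3, 2.99 on day 2), *Twist1* (−1.47 on day 3, 1.09 on day 2), *Zeb2* (−1.51 on day 3, 1.24 on day 2), *Epha4* (−2.09 on day 3, 1.33 on day 2) and *Nkx1-2* (−2.04 on day 3, 2.89 on day 2). Of these 11 genes, *Eomes*, *Evx1*, *Sp5* and *Msx1* are nascent mesoderm factors. Higher on day 3 and lower on day 2 were *Ascl2* (1.53 on day 3, −2.28 on day 2), *Fos* (1.07 on day 3, −1.51 on day 2), *Egr1* (2.55 on day 3, −2.47 on day 2) and *Egr2* (1.28 on day 3, −1.27 on day 2), of which *Fos*, *Egr1* and *Egr2* are immediate early genes. *Hoxb1*, *Cyp26a1*, *Cdx1* and *Isl1*, at or below 1 FPKM in both columns on day 2, had log2 ratios of 2.44, 1.51, 1.51 and 1.39 on that day and were lower on day 3. All values are log2 ratios of KO over WT within the table of each day.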

How the results depend on the processing

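The log2 ratio of *T* stayed below −1 under each alternative tried. The 23 other genes named by rank also kept their direction and stayed past 2-fold under each alternative that gave a value for them (160 values). They were chosen for the size of these same ratios, so this is not an independent check. With near-identical copies summed, which was not among the alternatives, *Eif3j1* and *Dynlt1f* were within 2-fold (log2 ratios of 0.17 and 0.96). The counts of called genes depended on the settings. With a pseudocount of 1 FPKM, 339 genes were called, 253 lower and 86 higher. Rescaling to TPM gave 939, 646 of them lower, and rescaling over transcripts longer than 300 bases gave 956, 631 lower and 325 higher. Here the same minimum of 1 admits more genes, 12358 and 12418. Without an FPKM minimum 1493 were called, 888 lower and 605 higher, and above 5 FPKM 261, 179 lower and 82 higher. Of 278 list medians under alternatives, 264 kept their side of 2-fold, 7 moved inside it and 7 beyond it. Above 5 FPKM the paraxial median went from −0.97 to −7.05, that of WNT ligands from −0.38 to −1.74 and that of cardiac and lateral genes from −1.18 to −0.50 (−0.62 with a pseudocount of 1). As TPM the endoderm median went from −0.04 to −1.18 and the paraxial median to −1.07. Without a minimum the *Cdx* and *Hox* median went from −1.73 to −0.04. Above 5 FPKM fewer genes are examined, and as TPM or without a minimum more. Leaving out chromosomes 8 and Y, neighbours of *T* and short RNAs was chosen after seeing the data. No paired analysis was possible because each column holds 1 pooled value per condition, and no replicate could be left out for the same reason.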

Other observations

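The *Rtl8* genes of the X chromosome, retrotransposon-derived genes chosen after their values were seen, were lower in *T* KO cells, with *Rtl8c* at 18.7 FPKM in WT and 2.92 in *T* KO, *Rtl8b* at 6.59 and 1.30 and *Rtl8a* at 3.43 and 0.859. These genes resemble each other in sequence, and reads may be shared between them. *Tmem185a*, also on the X chromosome, was at 57.0 FPKM in WT and 8.45 in *T* KO, and its copy *Tmem185b* on chromosome 1 at 2.97 and 3.14. *Xist* was at 0.0159 FPKM in WT and 0.0182 in *T* KO.

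The Y-linked genes *Ddx3y*, *Eif2s3y* and *Uty* summed to 16.8 to 18.7 FPKM in the F1G4 WT columns of the KO tables and to 0.0831 to 0.336 FPKM in the KO lines derived from F1G4. In the separate *Smad4* line the sums were 123 to 143 FPKM over both genotypes. *H19* on day 2 of that line was at 208 FPKM without and 64.7 FPKM with the *Smad4* deletion. What sets these levels was not tested.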
